A study of Mus musculus with 6 samples.

Results

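Star encodes the steroidogenic acute regulatory protein, which moves cholesterol across the mitochondrial membranes, and 10 mouse genes of that step were followed here in hearts with an inducible deletion of Tead1. They are Star itself, 3 genes of related cholesterol-binding proteins (Stard3, Stard4 and Stard5), the outer-membrane cholesterol-binding protein Tspo, the mitochondrial enzymes Cyp11a1, Cyp11b1 and Cyp11b2, and the electron carriers Fdx1 and Fdxr. The set was chosen by the strong rise of the Star array signal in these same hearts, and its partners were added for their function. It comprises 14 probes of 10 genes, out of 55681 non-control probes, of which 26582 could be named for 20145 genes. Total RNA of heart ventricle from male C57bl/6j mice aged 11 to 12 weeks was measured on 6 one-colour Agilent arrays. The 3 icKO mice were Tead1F/F and carried Myh6-CreER, a Cre recombinase that tamoxifen activates and that the Myh6 promoter restricts to cardiomyocytes, so other cells of the ventricle would keep Tead1. The 3 control mice were Tead1 flox mice. All mice of both groups received tamoxifen. No Cre is named for the controls, so the effect of losing Tead1 cannot be told apart from that of Cre.

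In adrenal and gonadal cells, steroid synthesis begins when the StAR protein brings cholesterol to the inner mitochondrial membrane. There Cyp11a1 cuts the side chain of cholesterol to give pregnenolone, using electrons that Fdxr takes from NADPH and Fdx1 hands on. Cyp11b1 and Cyp11b2 use the same electron carriers for the last steps towards corticosterone and aldosterone. The heart is not a classical steroid-producing organ, and the electron carriers also serve other mitochondrial P450 enzymes and the building of iron-sulphur clusters.

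Levels are given as log2 of the processed signal less the 75th percentile of the same array, and a difference is the icKO mean less the control mean on that scale. Each array's 75th percentile signal was 292 to 348 in icKO and 189 to 233 in controls, between 49.1% and 51.9% of spots lay well above background, and 0 spots were saturated. The number of arrays limits the precision. Correlations between arrays were 0.987 to 0.992 within icKO, 0.989 to 0.992 within controls and 0.947 to 0.958 between groups. Of 22278 features tested, 9974 (44.8%) passed an adjusted p of 0.05, and 35.8% of these were higher in icKO. That share was 54.6% with arrays scaled to their median and 81% with arrays scaled to spike-in probes, and the median difference of all features was -0.14, 0.02 and 0.30 under these 3 scalings. The probe used for Tead1 stood at 3.66, 3.44 and 3.46 in icKO, against 4.01, 3.79 and 3.96 in controls (-0.40 ± 0.11 SE, adjusted p = 0.030, or 0.04 under spike-in scaling, adjusted p = 0.834). Leaving out control replicate 1 or 3, or icKO replicate 2 or 3, ended that call. Whether this probe falls inside the floxed part of Tead1 is unknown here, and it therefore checks no label. All 8 cardiomyocyte markers were well above background on all 6 arrays.

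Among the members, Star and Tspo were higher in icKO, Stard3, Fdx1 and Fdxr were lower, Stard4 and Stard5 did not pass the test, and all 3 enzymes were dark in both groups. In counts, 7 of the 10 members had a probe well above background on all arrays of a group and were tested. Of these 7, 2 were called higher, where 16.0% of all features tested were, and 3 were called lower, where 28.7% of all features were. With spike-in scaling the same 7 gave 2 higher and 1 lower, where 32.2% and 7.54% of all features were called in those directions. The rule that chose the set used this contrast, and nothing is read from these shares. The median difference of the 7 was -0.22 (0.22 under spike-in scaling), beside -0.14 over all features (0.30).

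**Figure D1:**
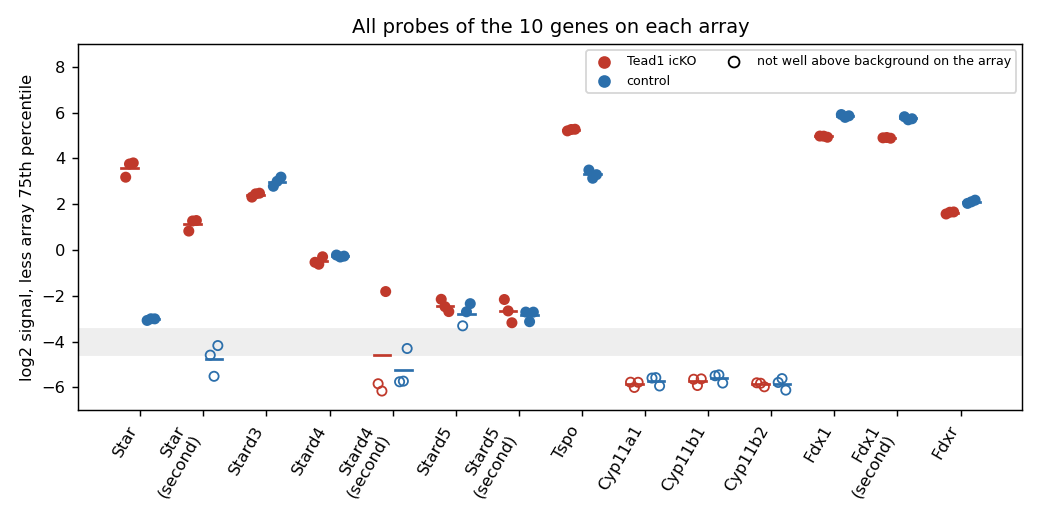
Log2 processed signal less the array's 75th percentile (vertical axis) for all 14 probes of the 10 genes, with 3 icKO arrays (red) left of 3 control arrays (blue). Horizontal bars are group means, hollow points are not well above background on that array, and the grey band spans, over arrays, the dimmest signal that counted as well above background. Star stands at 3.18 to 3.80 in icKO and near -3.0 in controls, Tspo is higher and Fdx1 lower in icKO, and all points of Cyp11a1, Cyp11b1 and Cyp11b2 lie below the band.

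Star was well above background on all 6 arrays with the brighter of its 2 probes. That probe read 3.18, 3.76 and 3.80 in icKO, against -3.08, -3.0 and -3.01 in controls. Every icKO array lay far above every control array, and the controls were close to the low end of what the arrays measure. In processed signal the icKO arrays held 2829, 4698 and 4078 units and the controls 22.4, 29.0 and 26.8 units. The means were 3.58 ± 0.35 and -3.03 ± 0.04 (SD, n = 3 each), a difference of 6.61 ± 0.18 (SE) or 97.7-fold, given without a test since it chose the set. The size depends on how background is handled at that low control level, and normexp background correction gave 30.05-fold. Without scaling between arrays it was 146-fold. Ranked from the largest rise down, Star was 3rd among the 12974 named genes tested, a rank that rests on the same rise that chose the set. In ventricle RNA, more cells that make a transcript and more transcript per cell cannot be told apart.

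The second Star probe read 0.83, 1.27 and 1.29 in icKO, against -4.59, -5.52 and -4.17 in controls. It was well above background on all 3 icKO arrays and on 0 of 3 control arrays, so the control level has only a bound. Taking in the controls the higher of the probe's own signal and the lowest signal that was well above background on each array, Star was at least 28.8-fold brighter in icKO by this probe.

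Cells of steroid-producing glands were looked for through 11 marker genes, of which 10 had a probe. Among these, 6 were not well above background on any of the 6 arrays: Mc2r and Lhcgr, the receptors for corticotropin and luteinising hormone, the dehydrogenases Hsd3b1 and Hsd3b6, the aldose reductase family member Akr1b7, and Nr0b1, a nuclear receptor of adrenal and gonad. Insl3, a hormone of Leydig cells, had no probe that could be named. The other 4 were Nr5a1, Mrap, Cyp17a1 and Cyp21a1, and their mean level was -0.30 to -0.21 in icKO, against 0.08 to 0.52 in controls. Of the 4, 0 were called higher and 2 lower, Mrap and Cyp17a1, where 16.0% and 28.7% of all features were. Spike-in scaling gave 0 and 0, where 32.2% and 7.54% of all features were. Fibroblast markers were higher beside Star, with 8 of 10 called higher and 0 lower, where 16.0% and 28.7% of all features were. Spike-in scaling gave 9 and 0, where 32.2% and 7.54% of all features were. The mean level of these markers was 4.31 to 4.71 in icKO and 2.52 to 3.34 in controls, and all 10 were well above background on all arrays. Their part in the rise of Star was not tested.

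Tspo, the translocator protein of the outer mitochondrial membrane, was the only other member called higher. It read 5.20, 5.26 and 5.28 in icKO, against 3.49, 3.13 and 3.29 in controls. The groups did not overlap, and the icKO arrays lay close together. The means were 5.25 ± 0.04 and 3.31 ± 0.18 (SD, n = 3 each), a difference of 1.94 ± 0.12 (SE) or 3.84-fold (limma, adjusted p = 0.000203). It was called higher under all 19 other settings, with differences of 1.86 to 2.52. Tspo is also abundant in macrophages. Of 17 macrophage markers with a probe, 14 were called higher and 0 lower, where 16.0% and 28.7% of all features were. Spike-in scaling gave 17 and 0, where 32.2% and 7.54% of all features were. The mean level of the macrophage markers was 2.19 to 2.77 in icKO, against 0.85 to 1.45 in controls. All 17 were well above background on all 6 arrays, and Cd68 had no probe that could be named. Their part in the Tspo difference was not tested.

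Stard3, a late endosome protein with the same cholesterol-binding fold as StAR, was lower in icKO. It read 2.31, 2.45 and 2.48 in icKO, against 2.78, 3.0 and 3.18 in controls. The groups did not overlap. The difference was -0.57 ± 0.13 (SE, n = 3 and 3; adjusted p = 0.0136), and median scaling ended the call (-0.42, adjusted p = 0.0746), as did spike-in scaling (-0.13, adjusted p = 0.605). Keeping dim probes in the table ended it too (adjusted p = 0.0629), and without scaling between arrays the difference was 0.01 (adjusted p = 0.981).

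Stard4 and Stard5 encode small soluble sterol carriers of the cytosol, and neither passed the test. Stard4 read -0.54, -0.62 and -0.30 in icKO, against -0.22, -0.31 and -0.27 in controls, with groups that overlapped (-0.22 ± 0.11 SE, adjusted p = 0.159, but 0.22 under spike-in scaling, adjusted p = 0.316). A second Stard4 probe was well above background on 1 icKO array only, where it read -1.81, while it read -5.84 and -6.16 on the other icKO arrays and -5.76, -5.73 and -4.30 in controls. Stard5 read -2.15, -2.48 and -2.69 in icKO, against -3.31, -2.70 and -2.34 in controls. It was well above background on 3 icKO and 2 control arrays. The Stard5 groups overlapped, and the difference was 0.35 ± 0.27 (SE, adjusted p = 0.329). Its second probe, measured on all 6 arrays, gave 0.19. Only without scaling between arrays was Stard5 called (0.93, adjusted p = 0.037), and with normexp the sign turned (-0.13).

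The enzymes that would use the delivered cholesterol were not measurable in these ventricles. Cyp11a1, the side-chain cleavage enzyme, had processed signals of 5.70, 5.42 and 5.32 in icKO, against 3.92, 4.88 and 3.50 in controls. Cyp11b1, which completes corticosterone, had 6.23, 5.75 and 5.89 in icKO, against 4.20, 5.30 and 3.83 in controls. Cyp11b2, the aldosterone synthase, had 5.60, 6.15 and 4.64 in icKO, against 3.43, 4.74 and 3.09 in controls. None of these 3 probes was well above background on any array. The dimmest probe that was well above background had a signal of 15.3 to 22.8 on icKO arrays and 8.89 to 21.1 on control arrays. So no fold is given, and a level under that limit was not detectable here. Partners of Star above background on all 6 arrays were Stard3, Stard4, Stard5 by one of its probes, Tspo, Fdx1 and Fdxr.

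The electron carriers were both measured on all arrays, and both were lower in icKO, though the call of Fdxr was lost under median and spike-in scaling. Fdx1, the ferredoxin that passes electrons to the P450 enzymes, read 4.98, 4.97 and 4.93 in icKO, against 5.92, 5.79 and 5.86 in controls. The groups did not overlap and each was narrow. The means were 4.96 ± 0.03 and 5.86 ± 0.06 (SD, n = 3 each), and Fdx1 fell by a factor of 1.86 (log2 difference -0.90 ± 0.09 SE, adjusted p = 0.000774). A second Fdx1 probe gave -0.85, with 4.90, 4.91 and 4.88 in icKO, against 5.82, 5.69 and 5.73 in controls. The call held under spike-in scaling (-0.46, adjusted p = 0.0368) and was lost without scaling between arrays (-0.32, adjusted p = 0.11).

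Fdxr, the reductase that loads Fdx1 with electrons, read 1.57, 1.65 and 1.66 in icKO, against 2.04, 2.11 and 2.18 in controls. These groups did not overlap either. The difference was -0.48 ± 0.09 (SE, n = 3 and 3; adjusted p = 0.00738). Median scaling (-0.32, adjusted p = 0.0858) or scaling to spike-in probes (-0.04, adjusted p = 0.874) ended that call, and without scaling the difference was 0.10 (adjusted p = 0.621). Altogether 5 of the 7 tested members had groups that did not overlap, and so did 59.3% of all features. Star, whose rise chose the set, is among the 5, and nothing is read from this count. Cardiomyocyte markers were lower beside Fdx1, Fdxr and Stard3. Of 8 markers, 6 were called lower and 0 higher, where 28.7% and 16.0% of all features were. Scaling to spike-ins left 2 lower and made 1 higher, where 7.54% and 32.2% of all features were. The mean level of these markers was 7.87 to 8.03 in icKO, against 8.49 to 8.58 in controls. Their part in the differences of Fdx1, Fdxr and Stard3 was not tested.

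**Figure D2:**
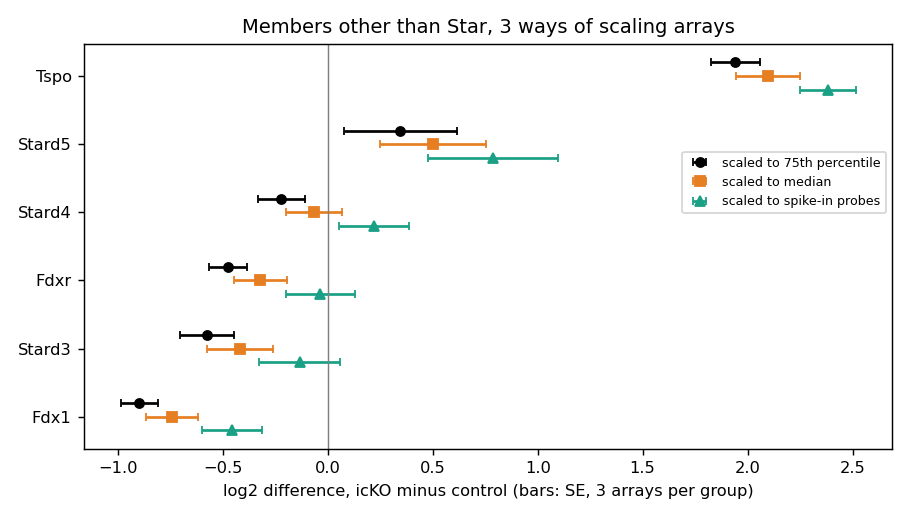
Log2 difference, icKO minus control (horizontal axis), of the 6 tested members other than Star, with arrays scaled to their 75th percentile (black circles), their median (orange squares) or spike-in probes (green triangles). Bars are standard errors, with 3 arrays per group. Tspo lies at 1.94 to 2.38 and Fdx1 at -0.90 to -0.46, while Fdxr and Stard3 come near 0 under spike-in scaling and Stard4 changes sign.

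Sequence upstream of the transcription start could be read for 5 of the 10 members from a RefSeq promoter table of build GRCm38.p6. These gave 6 windows of 250 bases, since Cyp11a1 has 2 starts there. Star, Tspo, Stard4, Cyp11b1 and Cyp11b2 had no entry and were not searched. Fdx1 and Stard3, which were both called lower, are shown because they differ in what they carry. Fdx1 lies on the minus strand (chr9:51963603-51963852) and Stard3 on the plus strand (chr11:98358118-98358367). Both are written 5′ to 3′ up to the base before the start, and capitals mark a GC box (GGGCGG) or a CCAAT box (CCAAT) on either strand.
Fdx1: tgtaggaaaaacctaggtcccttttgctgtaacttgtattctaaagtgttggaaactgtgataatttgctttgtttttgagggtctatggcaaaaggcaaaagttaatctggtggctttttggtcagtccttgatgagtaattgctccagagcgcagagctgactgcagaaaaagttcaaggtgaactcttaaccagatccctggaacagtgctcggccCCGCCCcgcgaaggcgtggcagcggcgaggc
Stard3: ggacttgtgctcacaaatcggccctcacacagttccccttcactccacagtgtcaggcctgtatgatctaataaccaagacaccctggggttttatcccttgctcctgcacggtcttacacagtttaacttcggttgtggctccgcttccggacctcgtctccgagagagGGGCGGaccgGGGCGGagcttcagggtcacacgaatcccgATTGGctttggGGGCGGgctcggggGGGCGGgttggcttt
The Fdx1 window held 1 GC box and 0 CCAAT boxes, and that of Stard3 held 4 GC boxes and 1 CCAAT box. The other windows held 4 GC boxes and 2 CCAAT boxes in Stard5, 3 and 1 in Fdxr, and 0 GC boxes with 1 and 0 CCAAT boxes in Cyp11a1. The MCAT element that TEAD factors bind (CATTCC), a site for the NR5A receptors (CAAGGNCA) and the cyclic AMP response element (TGACGTCA), each searched on both strands, had 0 matches in these 6 windows. Of 32851 promoters of the same length, 12.6% held the MCAT letters, 5.53% the NR5A letters, 1.55% the cyclic AMP response element, 32.7% a GC box and 33.8% a CCAAT box.

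Genes listed as partners of StAR, at the mitochondrial surface or elsewhere, were more often lower than higher, as were all features tested. Both orders turned under spike-in scaling. All 14 listed genes were tested. Of these, 8 were called lower and 3 higher, where 28.7% and 16.0% of all features were, with a median difference of -0.40. Spike-in scaling gave 1 lower and 4 higher, where 7.54% and 32.2% of all features were, with a median of 0.04. Vdac1, the main pore of the outer membrane, read 7.72, 7.75 and 7.80 in icKO, against 8.52, 8.59 and 8.59 in controls (-0.81 ± 0.09 SE, adjusted p = 0.000996). Its relative Vdac2 differed by -0.63 ± 0.10 (adjusted p = 0.00396). Both calls were lost under spike-in scaling (-0.37, adjusted p = 0.106, and -0.19, adjusted p = 0.352). Atad3a, an ATPase at contacts between the mitochondrial membranes, read 4.25, 4.18 and 4.25 in icKO, against 5.07, 5.28 and 5.49 in controls (-1.06 ± 0.13 SE, adjusted p = 0.00148), and stayed called under spike-in scaling (adjusted p = 0.0369). Dbi, which binds acyl-CoA and is a ligand of Tspo, differed by -0.45 ± 0.09 (adjusted p = 0.0086), and spike-in scaling left -0.01 (adjusted p = 0.951).

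Prkar1a, a regulatory subunit of protein kinase A, was the partner with the largest rise of the 3. It read 5.74, 6.05 and 6.32 in icKO, against 4.92, 4.49 and 4.80 in controls. The groups did not overlap, and the difference of 1.30 ± 0.18 (SE, adjusted p = 0.00265) was called under all 19 other settings. Its second kept probe gave 0.80. Lonp1, the matrix protease known to degrade StAR after import, differed by 0.34 ± 0.10 (adjusted p = 0.0328), and Acbd3, a Golgi protein that binds Tspo, by 0.34 ± 0.11 (adjusted p = 0.0463). Leaving out any of 5 arrays ended the call of either gene. For Lonp1 the exception was icKO replicate 1 and for Acbd3 control replicate 3.

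Other genes with the StAR-type lipid-binding domain were lower or did not pass, though 1 was called higher under spike-in scaling. Of 11 listed, 10 had a probe and 9 were tested. Of these 9, 6 were called lower and 0 higher, where 28.7% and 16.0% of all features were, with a median difference of -0.58. Spike-in scaling gave 1 lower and 1 higher, where 7.54% and 32.2% of all features were, with a median of -0.14. Stard10, a phospholipid carrier, read -1.17, -1.31 and -0.65 in icKO, against 0.48, 0.74 and 0.59 in controls. The groups were well apart, and the difference was -1.65 ± 0.19 (SE, adjusted p = 0.00128), and -1.21 after spike-in scaling (adjusted p = 0.00586). Pctp, the phosphatidylcholine carrier, was measured on 2 icKO and 3 control arrays and differed by -0.86 ± 0.29 (adjusted p = 0.0483). Its groups overlapped. Median scaling (-0.71, adjusted p = 0.102) or spike-in scaling (-0.42, adjusted p = 0.314) ended the call of Pctp. The call was also lost when control replicate 2 or 3, or icKO replicate 1 or 2, was left out, and under 11 of 18 other settings in all.

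Genes of cholesterol uptake, storage and release were less uniform. All 13 were tested, and 4 were called higher and 1 lower, where 16.0% and 28.7% of all features were, with a median of 0.43. Spike-in scaling gave 6 and 0, where 32.2% and 7.54% of all features were, with a median of 0.87. Lrp1, a lipoprotein receptor of many cell types, read 4.31, 4.63 and 4.38 in icKO, against 3.20, 2.81 and 3.02 in controls (1.43 ± 0.14 SE, adjusted p = 0.000817). Apoe, an apolipoprotein that macrophages also make, read 7.38, 7.39 and 7.32 in icKO, against 6.44, 6.06 and 6.01 in controls (1.19 ± 0.13 SE, adjusted p = 0.00124). These differences stood beside the higher macrophage and fibroblast markers given above, whose part in them was not tested. Vldlr, the receptor for very low density lipoprotein, was the gene called lower (-0.86 ± 0.12, adjusted p = 0.00269), and spike-in scaling ended that call (-0.42, adjusted p = 0.103). Scarb1, the receptor through which gland cells take cholesterol from high density lipoprotein, read 0.99, 0.41 and 0.36 in icKO, against 0.89, 1.36 and 1.29 in controls. Its groups overlapped (-0.59 ± 0.21, adjusted p = 0.0625), and without icKO replicate 1 it was called lower (-0.79, adjusted p = 0.0188).

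**Figure D3:**
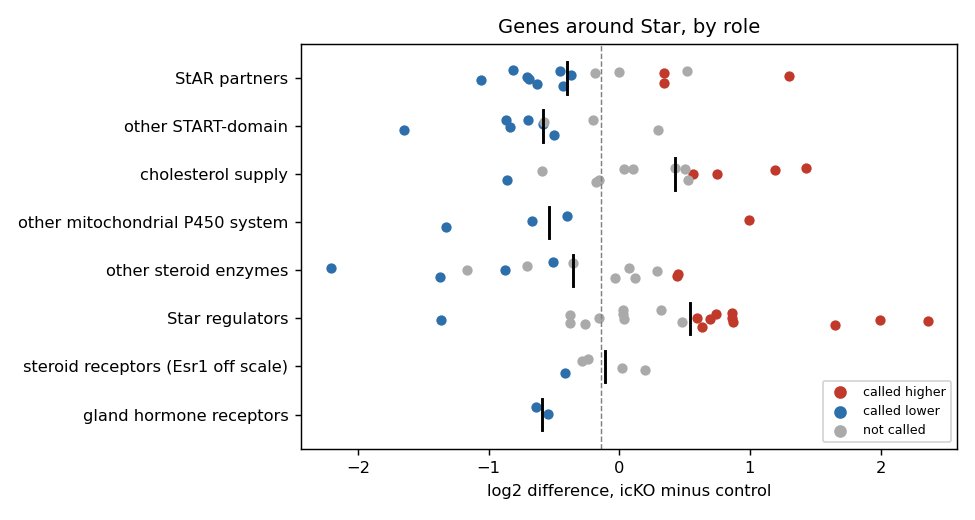
Log2 difference, icKO minus control (horizontal axis), of each tested gene in 8 lists around Star, coloured red where called higher, blue where called lower and grey where not called. Vertical bars are list medians, the dashed line is the median of all features (-0.14), and Esr1, at 8.59, is off the scale. Medians run from -0.59 for the gland hormone receptors to 0.54 for the regulators of Star.

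Enzymes that modify steroids further were measured in part. Of 24 steroid-modifying enzymes, 23 had a probe, 13 were tested and 8 were not well above background on any array, among them Hsd3b1 and Hsd3b6. The tested enzymes gave 2 higher and 4 lower, where 16.0% and 28.7% of all features were, with a median of -0.35. Under spike-in scaling they gave 4 and 2, where 32.2% and 7.54% of all features were, with a median of 0.09. Akr1c18, called lower under both scalings, was kept through its control signals alone. Hsd17b10, a mitochondrial dehydrogenase that also serves isoleucine breakdown and mitochondrial tRNA processing, had the smallest adjusted p of those called lower, at 5.66, 5.64 and 5.71 in icKO, against 7.05, 7.07 and 7.02 in controls (-1.37 ± 0.08 SE, adjusted p = 0.000208). It was called lower under all 19 other settings.

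Cyp17a1, the enzyme on the path to androgens and, in many species, cortisol, read 1.36, 1.24 and 1.21 in icKO, against 2.0, 1.66 and 1.69 in controls. The difference was -0.51 ± 0.12 (adjusted p = 0.018), and median scaling (-0.35, adjusted p = 0.0989), spike-in scaling (-0.07, adjusted p = 0.729) or leaving out icKO replicate 2 (adjusted p = 0.0531) or 3 (adjusted p = 0.0592) ended the call. Cyp21a1, whose near-identical pseudogene makes its signal uncertain, differed by -0.71 ± 0.56 (adjusted p = 0.338). Akr1c18, which inactivates progesterone, was well above background on 3 control arrays and 0 icKO arrays. Its control signal was at least 2.80-fold brighter than in icKO, a bound that was not tested. Akr1c18 passed the filter through its control signals alone, and the fit used the dim icKO signals as they were. The fit gave -2.21 ± 0.61 (SE, adjusted p = 0.0274), and nothing is read from that call. Akr1c18 lost that call when control replicate 1 or 2, or icKO replicate 2 or 3, was left out. With normexp its log2 difference was -0.85 (adjusted p = 0.00262), smaller than the 2.80-fold bound.

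Hsd11b1, which regenerates active glucocorticoid, differed by 0.44 ± 0.13 (adjusted p = 0.0337), and Srd5a3, of the steroid reductase family, by 0.45 ± 0.15 (adjusted p = 0.0497). Leaving out any 1 of control replicates 1 and 3 and icKO replicates 1 and 3 ended the Hsd11b1 call, and leaving out control replicate 2 or icKO replicate 1 or 2 ended that of Srd5a3. Por, the electron donor of P450 enzymes in the endoplasmic reticulum, did not pass (0.29 ± 0.11, adjusted p = 0.078), but was called higher with median scaling (0.44, adjusted p = 0.0348) and under spike-in scaling (0.73, adjusted p = 0.0139).

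Other mitochondrial P450 genes and their NADPH supply split by direction. Of 7 listed, 6 had a probe and 4 were tested, with 1 called higher and 3 lower. Their median difference was -0.54, or -0.09 with 1 higher and 1 lower under spike-in scaling. Over all features 16.0% were called higher and 28.7% lower, or 32.2% and 7.54% under spike-in scaling. Cyp27a1, the sterol 27-hydroxylase that also draws electrons from Fdx1, read -0.46, -0.71 and -1.0 in icKO, against -1.72, -1.55 and -1.88 in controls. The groups did not overlap, and the difference of 0.99 ± 0.16 (SE, adjusted p = 0.00468) was called under all 19 other settings. Me3, a mitochondrial malic enzyme that makes NADPH, read 3.78, 4.19 and 3.89 in icKO, against 5.28, 5.34 and 5.22 in controls (-1.33 ± 0.13 SE, adjusted p = 0.000772), also called under all 19. Idh2, another source of mitochondrial NADPH, differed by -0.67 ± 0.11 (adjusted p = 0.00437), and quantile normalization (-0.14, adjusted p = 0.278) or spike-in scaling (-0.23, adjusted p = 0.301) ended that call.

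Transcription factors and kinases known to act on the Star gene in steroid-producing cells were listed as well. Of 22, 20 were tested. Of these, 10 were called higher and 1 lower, where 16.0% and 28.7% of all features were, with a median of 0.54. Spike-in scaling gave 14 and 1, where 32.2% and 7.54% of all features were, with a median of 0.98. Nr4a1, an orphan receptor induced by cyclic AMP, read 5.13, 5.05 and 5.21 in icKO, against 2.62, 4.04 and 2.75 in controls. All icKO arrays lay above all controls, of which replicate 2 was the highest, and the difference was 1.99 ± 0.37 (SE, adjusted p = 0.00684). Fos, an immediate early gene, read 0.30, -0.44 and -0.53 in icKO, against -3.10, -1.36 and -3.28 in controls (2.36 ± 0.53 SE, adjusted p = 0.0136), and with normexp the difference was 1.21. Control replicate 2 was the highest control for Fos too.

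Gata6, a factor of heart and adrenal, differed by 0.64 ± 0.13 (adjusted p = 0.00894), from 3.89, 3.60 and 3.77 in icKO, against 3.15, 3.26 and 2.95 in controls. Gata4, the related cardiac factor, did not pass (-0.37 ± 0.13, adjusted p = 0.0584, and 0.067 after spike-in scaling), but passed without control replicate 1 (-0.48, adjusted p = 0.031). The factor that sets steroidogenic fate, Nr5a1, read -1.63, -1.59 and -1.64 in icKO, against -1.51, -1.29 and -1.26 in controls. Its difference of -0.26 ± 0.10 did not pass (adjusted p = 0.0813) and was 0.18 after spike-in scaling, though it passed with normexp (-0.27, adjusted p = 0.0444) and without control replicate 1 (-0.34, adjusted p = 0.0449). Its relative Nr5a2 was lower, at -2.94, -2.19 and -2.78 in icKO, against -1.39, -1.62 and -0.81 in controls (-1.37 ± 0.28 SE, adjusted p = 0.00922). Nr0b1, which represses Nr5a1 targets, was dark on all arrays.

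Receptors that switch on steroid synthesis in glands were mostly dark. Of 6 listed, 4 were not well above background on any array and 2 were called lower, or 0 under spike-in scaling. Over all features 28.7% were called lower, or 7.54% under spike-in scaling. The 2 measured were Agtr1a, an angiotensin receptor (-0.64 ± 0.17, adjusted p = 0.0261, or -0.19 under spike-in scaling, adjusted p = 0.551), and Mrap, an accessory protein of the corticotropin receptor (-0.54 ± 0.17, adjusted p = 0.0376, or -0.10 under spike-in scaling, adjusted p = 0.671). Leaving out control replicate 3 or icKO replicate 2 ended both calls, as did control replicate 2 or icKO replicate 3 for Agtr1a and control replicate 1 or icKO replicate 1 for Mrap.

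Of 7 steroid hormone receptors, 6 were tested. Of these, 1 was called higher and 1 lower, where 16.0% and 28.7% of all features were, with a median of -0.11. Spike-in scaling gave 2 and 0, where 32.2% and 7.54% of all features were, with a median of 0.33. The glucocorticoid receptor Nr3c1 read 3.82, 3.94 and 3.94 in icKO, against 4.33, 4.29 and 4.34 in controls (-0.42 ± 0.09 SE, adjusted p = 0.011, but 0.02 under spike-in scaling, adjusted p = 0.91). The mineralocorticoid receptor Nr3c2 did not pass (-0.24 ± 0.21, adjusted p = 0.382, but 0.20 after spike-in scaling). Esr1, an oestrogen receptor, was the one called higher, by 1 of its 3 probes. That probe read 1.90, 5.12 and 4.66 in icKO, against -5.69, -2.87 and -5.54 in controls, where 1 of 3 arrays was well above background (8.59 ± 1.08 SE, adjusted p = 0.00176). The other Esr1 probes were well above background on 1 icKO array at most and differed by 0.10 and 0.18. With normexp the difference of the bright probe was 5.47. So a rise of the Esr1 gene itself is uncertain, as is its size. Whether the bright probe reads part of the CreER transgene of the icKO mice was not tested.

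The genes whose profile over the 6 arrays lay nearest to that of Star were ranked by the root mean square distance between log2 profiles, each less its own mean. Among the 5 nearest were Comp (0.39), Ltbp2 (0.58), Chil1 (0.75) and Col8a2 (0.79). Comp and Ltbp2 are extracellular matrix proteins, Chil1 is a secreted chitinase-like protein and Col8a2 a collagen chain. Comp read 6.01, 6.94 and 6.18 in icKO, against 0.57, 0.14 and 0.27 in controls. Ltbp2 read 5.98, 6.19 and 6.27 in icKO, against 0.90, -0.40 and 0.50 in controls. Chil1 and Col8a2 were not well above background in any control, and were at least 14.2-fold and at least 23.4-fold brighter in icKO. With normexp their log2 differences were smaller than these bounds, at 2.04 and 2.65.

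**Figure D4:**
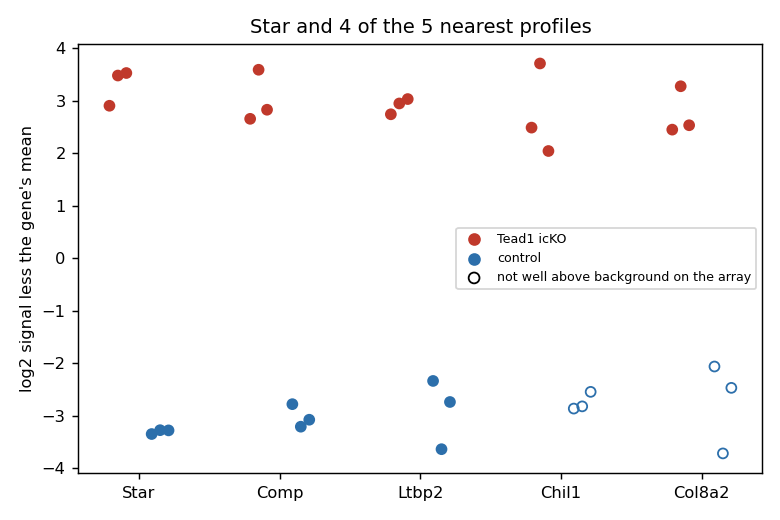
Log2 signal less each gene's mean over the 6 arrays (vertical axis) for Star and 4 of the 5 named genes with the nearest profiles, with 3 icKO arrays (red) left of 3 control arrays (blue). Hollow points are not well above background on that array. All 5 genes lie above their mean on every icKO array and below it on every control array, which follows from choosing them by closeness to Star. Chil1 and Col8a2 have hollow control points only, and these dim signals entered their distance.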

How the data were processed

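Cy3-labelled ventricle RNA was hybridised to one-colour arrays, 1 per mouse, per the labels' protocols. Intensity was deposited as linear spot signals, which Feature Extraction 11.0.1.1 had background-subtracted on Agilent design 028005 without scaling between arrays, per the file headers. Version 9.1 is named in the submitters' processing notes. A value table by the authors, also of linear intensity, had column medians of 18.37 to 18.47 and correlated with each array's log2 signals at 0.9995 or more. How the authors normalized it is not stated in the sources used here, and being uncentred it leaves no direction unknown.

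From each log2 signal the 75th percentile of its array, taken over non-control probes, was subtracted. Outlier spots were dropped and replicate spots averaged. Probes well above background on all 3 arrays of a group were kept (26152 of 55681). Probes were named by RefSeq accession through a RefSeq table of GRCm38.p6, for names alone because the array design is on mm9. The brightest kept probe stood for each gene. All 22278 features were compared with limma 3.58.1 in R 4.3.3, group as the only term, with Benjamini-Hochberg adjustment over all of them and a threshold of 0.05. Adjusted p-values are from that fit, or from the same fit under another setting where one is named. Members and lists were chosen with earlier results of these data known. Named genes were the members, Tead1, 18 pathway genes whatever their result, up to 2 genes called higher and 2 lower with the largest difference in each list, the gland markers and the 5 profiles nearest to Star, of which 1 is not reported here.

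The fit was also run on simulated data whose means and spreads were taken from these arrays. Other settings were normexp background correction (on median signals, offset 50), median, quantile, spike-in (175 spots) or no scaling, the authors' table, other filters, the mean of a gene's probes, outlier spots kept, trend and robust eBayes, blocks and leaving out each array. All arrays lay on 1 slide, with icKO in slide columns 2, 3 and 3 and controls in 1, 1 and 2, so slide column and group can hardly be told apart.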

Additional observations from a re-analysis of the deposited data

How the results depend on the processing

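The log2 difference of Star was 4.91 with normexp, 7.05 under spike-in scaling, 7.19 with no scaling, 6.25 as the mean of its kept probes, and 6.50 to 6.81 when each array was left out. Members called higher stayed at 2, or 3 with no scaling. Members called lower, 3 in the report, were 1 with median scaling, 1 under spike-in scaling, 0 with no scaling and 3 whichever array was left out. Features called were 6123 with no filter on dim probes, against 9974, and 7548 to 9033 when each array was left out. The share of calls that were higher in icKO, 35.8% in the report, was 45.8% with quantile normalization and 88.5% with no scaling.

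Over 46 named results and 19 settings there were 869 values, of which 736 kept direction and side of the threshold, 99 lost the call, 16 gained it and 18 changed sign. Without scaling the sign changed for the called genes Stard3 (0.0062), Mrap (0.037), Cyp17a1 (0.071), Fdxr (0.10), Dbi (0.13), Nr3c1 (0.16) and Tead1 (0.18), and for Gata4 (0.21), Nr5a1 (0.32), Nr3c2 (0.34) and Stard4 (0.36), which had not been called. With spike-in scaling it changed for Nr3c1 (0.024), Tead1 (0.043), Gata4 (0.067), Nr5a1 (0.18), Nr3c2 (0.20) and Stard4 (0.22), and with normexp for Stard5 (-0.13). Spike-in scaling and no scaling shift every difference by 1 amount, by construction.

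Replicate numbers do not pair the mice: deviations of same-numbered arrays correlated at -0.0497, -0.127 and 0.00119. With replicate number as a block 7881 features were called, Star differed by 6.61, and 40 of the 46 results were unchanged in call. What limits the dark genes is signal over background, which cannot separate a low level from none.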
